A study of Mus musculus with 9 samples.

Results

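The 44 genes described here build, cross-link and degrade the extracellular matrix of the liver or mark hepatic stellate cells. They were listed by symbol and matched by Ensembl gene ID to the rows of a liver count table, in which all 44 of 45513 genes were found. The table holds 9 RNA-seq libraries of C57BL/6 mouse liver in 3 groups of 3, each treated for 9 weeks: vehicle on a normal diet, vehicle on a high fat diet, and B-LGND2 on a high fat diet. B-LGND2 is known here only by its code name, and the series title presents it as a ligand of estrogen receptor beta. No group carries a transgene or a deletion in the labels, and dose, diet composition, age and sex were not given in the sources used here. After a filter on low counts, 38 of the 44 genes were tested among 12102, and Col5a2, Thbs1, Tgfb2, Timp1, Lox and Loxl1 were not. A gene that passes this filter through the group in which it is high is more likely to differ, so counts over the 38 are not counts over all 44.

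Hepatic stellate cells are vitamin A storing cells that lie between hepatocytes and the sinusoidal endothelium. In an injured liver they can turn into contractile cells that express smooth muscle actin and secrete fibrillar collagen, with transforming growth factor beta (TGF-beta) and platelet-derived growth factor as leading signals. Matrix metalloproteinases cut the deposited matrix, tissue inhibitors of metalloproteinases (TIMPs) block them, and lysyl oxidases cross-link collagen. Hepatocytes also secrete matrix proteins, among them fibronectin.

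In livers of mice given B-LGND2, 3 of the 38 genes rose against vehicle on the same diet, beside 3.07% of all genes called higher. They were Mmp14, which encodes a membrane-bound collagenase (3.16-fold), Spp1, which encodes osteopontin (1.94-fold), and Sparc, which encodes a collagen-binding glycoprotein (1.87-fold). Of 21 alternative analyses, all 21 called Mmp14, 15 called Spp1 and 10 called Sparc. Against vehicle on the normal diet, where diet and B-LGND2 both differ, Mmp14 (2.42-fold) and Tgfb1 (2.56-fold), encoding a TGF-beta ligand, rose. In that comparison 1.59% of all genes were called higher. Tgfb1 passed neither for diet under vehicle (1.86-fold) nor with B-LGND2 on the high fat diet (1.38-fold). No gene of the list passed the test between the 2 diets under vehicle, where 2.99% of all genes did. The chains of type I and type III collagen, smooth muscle actin (Acta2), desmin (Des) and the stellate marker Lrat passed in no comparison. Fold changes are from edgeR's quasi-likelihood test over all 9 libraries, with Benjamini-Hochberg adjustment over all genes tested and a threshold of 0.05 on the adjusted p. Levels are counts per 1e6 counts (CPM) on scaled library sizes, printed as mean ± SD with n = 3 libraries. In bulk tissue, fewer cells of a type and less RNA per cell cannot be told apart.

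Library totals ran from 5778978 to 10322972 counts, and no pair of libraries of the same group was alike within sampling noise (chi-square per degree of freedom 11.8 or more). The labels give 3 mice per group and no batch, so p-values rest on the spread between libraries within groups, estimated together over all 3 groups. Composition differed between libraries. Ribosomal RNA took 3.16% to 3.74% of counts on normal diet, 0.901% to 1.44% in high fat vehicle livers and 4.31% to 6.19% with B-LGND2. Replicate 1 of the normal diet group had 12.7% mitochondrially encoded counts against 3.69% to 6.12% elsewhere. B-LGND2 replicate 1 stood apart in GC content, with a Spearman correlation across genes of 0.501 between GC and deviation from the mean, against at most 0.0808 in the others. The same correlation with transcript length was 0.299 to 0.359 in the high fat vehicle libraries, 0.204, -0.16 and -0.50 on normal diet and -0.24 to 0.0827 with B-LGND2. Results are given with and without replicate 1 of the normal diet and B-LGND2 groups where it changes them, and the part of these library properties in the results was not tested.

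Expression of the list was uneven. Per kb of transcript, Col18a1, encoding a basement membrane collagen that is the source of endostatin, had 205 CPM per kb averaged over the 9 libraries, and Fn1, encoding fibronectin, 170. Ecm1, encoding a secreted glycoprotein, followed at 97.8 and Bgn, encoding the small proteoglycan biglycan, at 35.2 CPM per kb. The chains of type I collagen were far lower, at 1.09 for Col1a2 and 0.459 for Col1a1, and the lowest gene, Lox, encoding lysyl oxidase, had 0.0307. Fn1 and Col18a1 together held 79.0% to 82.5% of the list's summed CPM in high fat vehicle libraries, 68.6% to 74.8% on normal diet and 68.7% to 73.7% with B-LGND2. Summed levels of the list therefore follow these 2 genes, and the other 42 were read gene by gene.

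**Figure D1:**
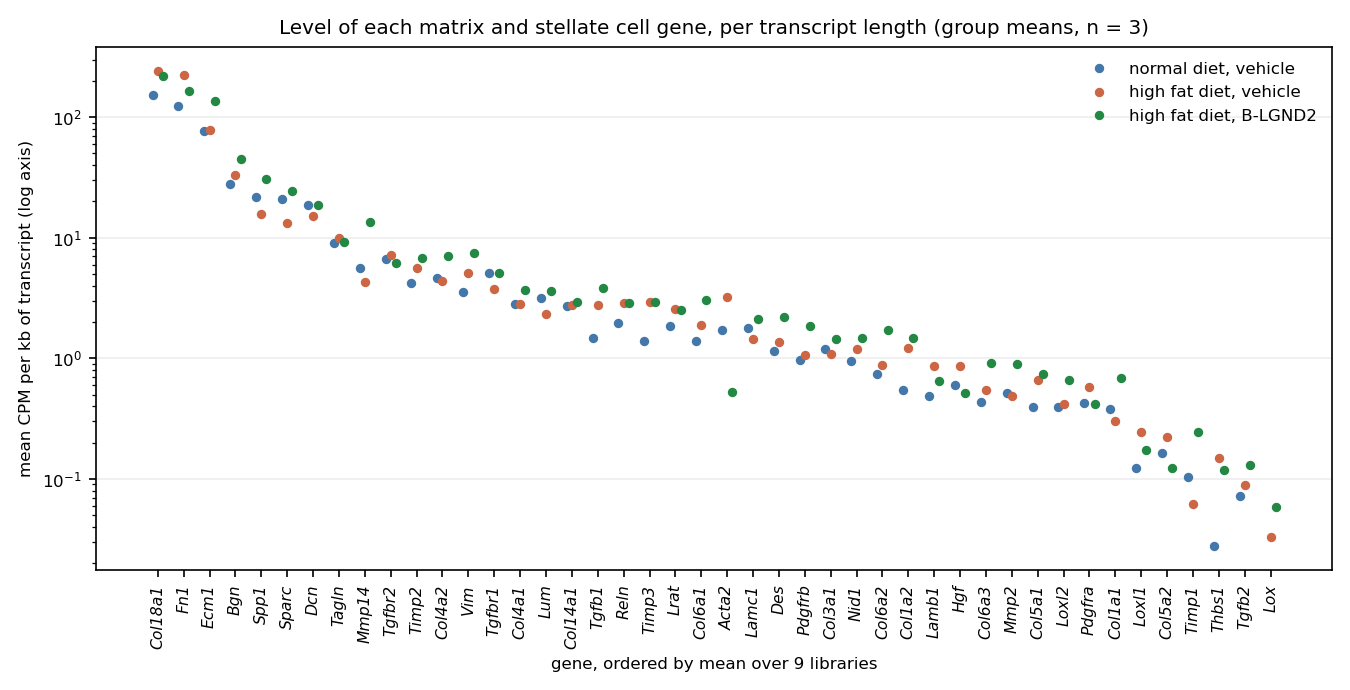
Mean CPM per kb of transcript (log axis) of all 44 genes, ordered by their mean over 9 libraries, with 1 point per group of 3 libraries. Col18a1 (205 over all libraries) and Fn1 (170) lead and Lox (0.0307) is last; Lox had no count on normal diet, so that point is not drawn.

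For diet under vehicle, 0 of the 38 genes passed, beside 2.99% of all 12102 genes (1.50% higher, 1.49% lower). At an unadjusted p under 0.05, 6 of the 38 differed (5 higher, 1 lower on high fat diet), where 22.4% of all genes did. Libraries of both groups did not overlap for 7 genes that were higher and 6 that were lower on high fat diet, beside 15.4% and 14.8% of all genes. The median log2 fold change was 0.22 over the 38 and 0.01 over all genes. After library offsets for transcript length and GC were added, the median of the 38 was -0.04. DESeq2 called 2 genes, Fn1 and Timp3, and limma-voom 1, Fn1. Without normal diet replicate 1, edgeR called 6: Col18a1, Col1a2, Col5a1, Fn1 and Timp3 higher and Sparc lower. The number of all genes called also rose with DESeq2 and moved widely when 1 library was left out, as given below. These counts are therefore not read as a trait of the list.

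Between B-LGND2 and vehicle, both on high fat diet, 3 of 38 passed, all higher, beside 3.07% of all genes called higher and 5.63% called in either direction. The unadjusted p was under 0.05 for 9 genes, all higher, beside 23.7% of all genes. All B-LGND2 libraries lay above all vehicle libraries for 14 genes (16.3% of all genes) and below them for 0 (17.3% of all genes). The fold change was above 0 for 28 of the 38 and the median was 0.42, against -0.00 over all genes. When 1 high fat vehicle library (whichever of the 3) or B-LGND2 replicate 3 was left out, Mmp14 alone passed.

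Set against normal diet with vehicle, the B-LGND2 livers had 2 of 38 genes that passed, both higher, beside 1.59% of all genes called higher, 1.33% called lower and 2.93% in either direction. The unadjusted p was under 0.05 for 15, beside 19.4% of all genes, and libraries did not overlap for 12, all higher, beside 10.5% of all genes higher. The median was 0.58, against -0.01 over all genes. Without normal diet replicate 1, 8 genes passed, all higher (Mmp14, Tgfb1, Col1a2, Col5a1, the 3 chains of type VI collagen and Pdgfrb), and 0 passed without normal diet replicate 2 or without B-LGND2 replicate 1. The number of all genes called also moved as single libraries were left out, so these counts are not read as a trait of the list. The diet and B-LGND2 comparisons share the high fat vehicle libraries, and the last comparison shares its groups with both, so the 3 are not independent of each other.

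**Figure D2:**
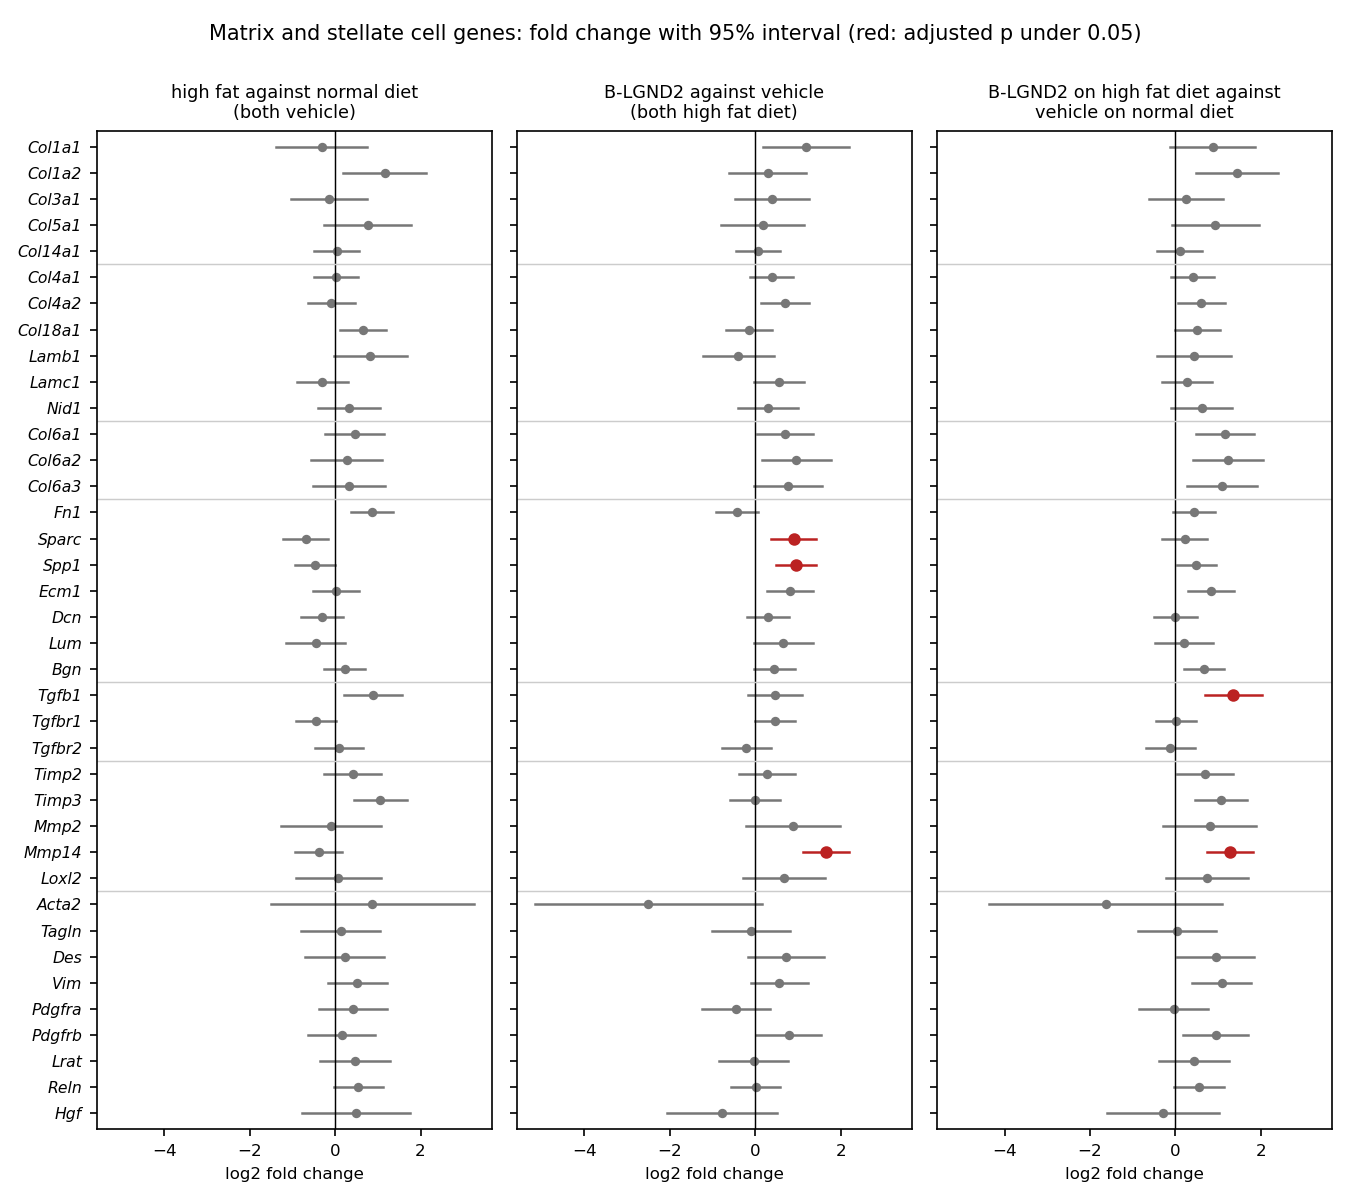
Log2 fold change of the 38 tested genes (points) with 95% interval (lines) in the 3 comparisons, in role order with gray rules between roles; red marks an adjusted p under 0.05. Red are Mmp14, Spp1 and Sparc in the middle panel and Mmp14 and Tgfb1 in the right panel, and none in the left.

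The fibrillar collagens were expressed at few counts. Col1a1 encodes the major chain of type I collagen (chr11:94936224-94953042, GRCm38). It had 22, 12 and 10 counts on normal diet, 12, 10 and 14 in high fat vehicle livers and 51, 14 and 26 with B-LGND2, or 2.26 ± 1.05, 1.81 ± 0.266 and 4.09 ± 1.93 CPM. The B-LGND2 libraries lay above the vehicle libraries of the same diet, closest for replicate 2 (2.06 against 1.97 CPM). The log2 fold change was 1.18 (SE 0.48, adjusted p = 0.144) with B-LGND2 and -0.31 (SE 0.50, adjusted p = 0.747) for diet, and the latter turned to 0.11 without normal diet replicate 1.

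Col1a2, the partner chain (chr6:4504814-4541544), had 36, 10 and 11 counts on normal diet, 57, 34 and 37 in high fat vehicle livers and 86, 46 and 43 with B-LGND2. Its means were 2.92 ± 2.32, 6.54 ± 2.46 and 7.94 ± 1.74 CPM, and normal diet replicate 1, at 5.60 CPM, lay above the lowest high fat vehicle library at 5.10. The log2 fold change was 1.16 (SE 0.46, adjusted p = 0.150) for diet, 0.29 (SE 0.42, adjusted p = 0.715) with B-LGND2 and 1.45 (SE 0.45, adjusted p = 0.0958) for treated livers against normal diet. Without normal diet replicate 1, the diet and treated values were 2.03 (adjusted p = 0.00861) and 2.32 (adjusted p = 0.0126). Of 20 alternative analyses that tested it, 3 called Col1a2 for diet and 5 for treated livers against normal diet. Whether Col1a2 passes therefore depends on the alternative chosen.

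Col3a1, encoding type III collagen (chr1:45311538-45349706), had 68, 31 and 32 counts on normal diet, 33, 61 and 26 in high fat vehicle livers and 62, 38 and 68 with B-LGND2. All 3 groups overlapped. Its log2 fold changes were -0.14 (SE 0.42, adjusted p = 0.870) for diet, 0.40 (SE 0.41, adjusted p = 0.589) with B-LGND2 and 0.25 (SE 0.41, adjusted p = 0.783) for treated livers against normal diet. The diet value changed sign without normal diet replicate 1 (0.35), without high fat vehicle replicate 3 (0.13) and without scaling between libraries (0.02), and the last value changed sign without B-LGND2 replicate 3 (-0.07). Col5a1, a chain of the type V collagen that regulates fibril diameter, ranged from 1.24 CPM in normal diet replicate 3 to 7.65 in high fat vehicle replicate 3, with log2 fold changes of 0.76, 0.17 and 0.93 in the 3 comparisons. Its partner chain Col5a2 had 2 to 13 counts per library and was not tested. Col14a1, a collagen that sits on fibrils and links them to other matrix, was the most stable in level, at 17.6, 18.0 and 18.9 CPM in the 3 groups.

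Basement membranes are sheets of type IV collagen, laminin and nidogen, and the sinusoids of a healthy liver lack a continuous one. None of the 6 genes of this role passed in any comparison. Col18a1 had 1075, 892 and 614 CPM on normal diet, 1397, 1407 and 1268 in high fat vehicle livers and 1558, 903 and 1222 with B-LGND2. High fat vehicle libraries lay above normal diet libraries without overlap, while B-LGND2 replicate 2 lay within the normal diet range. Diet gave a log2 fold change of 0.66 (SE 0.25, adjusted p = 0.137), and without normal diet replicate 1 it passed among the 6 genes then called.

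Type IV collagen is made of the chains Col4a1 and Col4a2, which lie head to head on chromosome 8 and share 22 exonic bases in the annotation. Col4a2 had 30.1 ± 8.20 CPM on normal diet, 28.3 ± 0.567 under high fat vehicle and 45.6 ± 14.7 after B-LGND2 (log2 fold change from high fat vehicle 0.69, SE 0.26, adjusted p = 0.120). Col4a1 had 24.4 ± 5.04 against 18.8 ± 1.04 CPM (0.38, SE 0.24, adjusted p = 0.343). For both chains the B-LGND2 libraries lay above the high fat vehicle libraries without overlap (as for 16.3% of all genes), and they overlapped the normal diet libraries. The laminin chains Lamb1 and Lamc1 had log2 fold changes of opposite sign: 0.83 and -0.30 for diet, and -0.40 and 0.56 with B-LGND2. Nidogen 1 (Nid1), which links laminin to type IV collagen, had 5.83 ± 2.15, 7.30 ± 1.21 and 9.00 ± 2.50 CPM in the 3 groups.

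Type VI collagen forms beaded microfilaments from 3 chains, and all 3 had their highest mean with B-LGND2. Col6a1 lies at chr10:76708792-76726168. Its counts were 44, 38 and 28 in normal diet livers, 65, 42 and 46 in high fat vehicle livers and 109, 70 and 90 with B-LGND2. In CPM the groups stood at 5.66 ± 1.58, 7.80 ± 2.51 and 12.6 ± 2.34, and high fat vehicle replicate 1 (10.7) lay within the B-LGND2 range. Treated livers against normal diet gave a log2 fold change of 1.16 (SE 0.32, adjusted p = 0.0624), higher in 3 of 3 libraries, and 0.70 (SE 0.31, adjusted p = 0.190) against high fat vehicle. It was called against normal diet in 3 of 21 alternative analyses, among them the 1 without normal diet replicate 1 (1.32, adjusted p = 0.0433). Against normal diet, Col6a2 had a log2 fold change of 1.23 (adjusted p = 0.0946) and Col6a3 of 1.09 (adjusted p = 0.136), and for all 3 chains treated and normal diet libraries did not overlap (10.5% of all genes were higher in this way).

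Among the glycoproteins and proteoglycans, Spp1 and Sparc rose with B-LGND2. Osteopontin, the product of Spp1 (chr5:104435118-104441050), is a secreted phosphoprotein that binds integrins and is made by bile duct cells, macrophages and activated stellate cells. Its upstream window, the 250 bases before the RefSeq start, is printed because Spp1 is 1 of the called genes and the window holds no GENCODE exon, and the letters found in it are described after the sequence. The window of Sparc and a second window of Spp1 are not printed, since 238 and 250 of their bases lie in GENCODE exons.

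Spp1 promoter, GRCm38.p6 chr5:104434861-104435110, plus strand: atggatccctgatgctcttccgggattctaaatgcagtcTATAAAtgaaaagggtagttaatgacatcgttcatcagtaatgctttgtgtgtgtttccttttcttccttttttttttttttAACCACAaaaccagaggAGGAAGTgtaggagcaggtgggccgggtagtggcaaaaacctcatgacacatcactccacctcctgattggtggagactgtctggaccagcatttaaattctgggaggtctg

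Capitals mark, in order, TATAAA (in 12.4% of 32851 windows of the same length), AACCACA, a RUNX motif (4.40%), and AGGAAGT, an ETS motif (7.69%), each searched on both strands. The TATAAA begins 211 bases before the start. These are matches of letters, chosen after the sequences were seen, and describe no binding.

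Spp1 had 217, 177 and 255 counts on normal diet, 137, 155 and 183 in high fat vehicle livers and 360, 280 and 334 with B-LGND2. The levels were 32.7 ± 3.13, 23.8 ± 1.52 and 46.1 ± 8.17 CPM, so the high fat vehicle libraries were the lowest, the B-LGND2 libraries the highest, and no group overlapped another. With B-LGND2 against high fat vehicle, the log2 fold change was 0.95 (SE 0.22, 95% interval 0.49 to 1.42, adjusted p = 0.0228, higher in 3 of 3 libraries). Against normal diet it was 0.49 (SE 0.22, adjusted p = 0.222), and for diet -0.46 (SE 0.22, adjusted p = 0.225). The call held in 15 of 21 alternatives. It was lost without scaling (0.79, adjusted p = 0.0666), without high fat vehicle replicate 1, 2 or 3 (adjusted p = 0.105, 0.114 and 0.0761) without B-LGND2 replicate 3 (0.80, adjusted p = 0.0644), and without normal diet and high fat vehicle replicate 1 together (adjusted p = 0.0729). Without B-LGND2 replicate 1, it was 1.05 (adjusted p = 0.044). A transcript of unknown type, Gm42793, shares 18.8% of the exonic bases of Spp1 on the same strand, and had 6 counts over all libraries.

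Sparc encodes osteonectin, which binds collagen and is expressed by stellate and endothelial cells (chr11:55394500-55423183). It had 38.3, 42.1 and 65.6 CPM on normal diet, 30.8, 29.4 and 30.5 in high fat vehicle livers and 58.1, 43.2 and 68.3 with B-LGND2. The high fat vehicle libraries were the lowest and nearly alike, and the normal diet and B-LGND2 groups overlapped. B-LGND2 against high fat vehicle gave a log2 fold change of 0.90 (SE 0.25, 95% interval 0.37 to 1.43, adjusted p = 0.0458, higher in 3 of 3 libraries). Against normal diet it was 0.21 (SE 0.25, adjusted p = 0.677), and for diet -0.69 (SE 0.25, adjusted p = 0.120). The call with B-LGND2 held in 10 of 21 alternatives, over which the adjusted p ran from 0.0117 to 0.169. It was lost without normal diet replicate 2 (adjusted p = 0.0645), any high fat vehicle library (0.138, 0.169 and 0.135 in order) or B-LGND2 replicate 1 or 3 (0.121 and 0.118), and also without scaling (0.0939), with limma-voom (0.0511), with the replicate block (0.0563) and without either of the 2 pairs of libraries left out after the data were seen (0.0678 and 0.0895). The diet value passed without normal diet replicate 1 (-0.84, adjusted p = 0.0368).

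Fn1 encodes fibronectin, the glycoprotein on which collagen is assembled (chr1:71585520-71653200), and hepatocytes are the main source of the plasma form. It had 1215, 936 and 912 CPM on normal diet, 2063, 1949 and 1544 in high fat vehicle livers and 1087, 1662 and 1376 with B-LGND2. Normal diet and high fat vehicle libraries did not overlap, and the B-LGND2 libraries lay between and across them. For diet, the log2 fold change was 0.86 (SE 0.23, adjusted p = 0.0539), just outside the threshold, and 7 of 21 alternatives called it, with adjusted p from 0.00526 by DESeq2 to 0.546. With offsets for transcript length and GC it was 0.26 (adjusted p = 0.546). Without normal diet replicate 1 it was 1.00 (adjusted p = 0.0151). With B-LGND2 against high fat vehicle it was -0.43 (SE 0.23, adjusted p = 0.269), and 0.43 (SE 0.23, adjusted p = 0.321) against normal diet.

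Ecm1, whose product has been tied to the restraint of TGF-beta activation in liver (chr3:95734147-95739569), had 131, 130.03 and 181 CPM on normal diet, 130.49, 150.23 and 168 in high fat vehicle livers and 374, 215 and 195 with B-LGND2. All B-LGND2 libraries lay above the others, and replicate 1 was far above the remaining pair. The log2 fold change with B-LGND2 was 0.81 (SE 0.26, adjusted p = 0.0723) against high fat vehicle and 0.83 (SE 0.26, adjusted p = 0.0913) against normal diet, and for diet 0.02 (SE 0.25, adjusted p = 0.969). Of 21 alternatives 5 called the first of these, for example without normal diet replicate 1 (adjusted p = 0.0499) or 3 (adjusted p = 0.0336), and without B-LGND2 replicate 1 it was 0.48 (adjusted p = 0.282).

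The small leucine-rich proteoglycans bind collagen fibrils. Bgn had 75.0 ± 14.2, 87.6 ± 7.81 and 119 ± 25.7 CPM in the 3 groups (log2 fold change 0.67 against normal diet, SE 0.22, adjusted p = 0.117). Decorin (Dcn) had 87.7 ± 11.2, 70.9 ± 3.52 and 87.7 ± 28.6 CPM, and lumican (Lum) 7.82 ± 0.950, 5.71 ± 0.649 and 8.93 ± 3.88. For both, high fat vehicle libraries lay below normal diet libraries without overlap (as for 14.8% of all genes), with log2 fold changes of -0.31 (adjusted p = 0.465) and -0.46 (adjusted p = 0.439). Thrombospondin 1 (Thbs1), which activates latent TGF-beta, had at most 9 counts in a library.

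**Figure D3:**
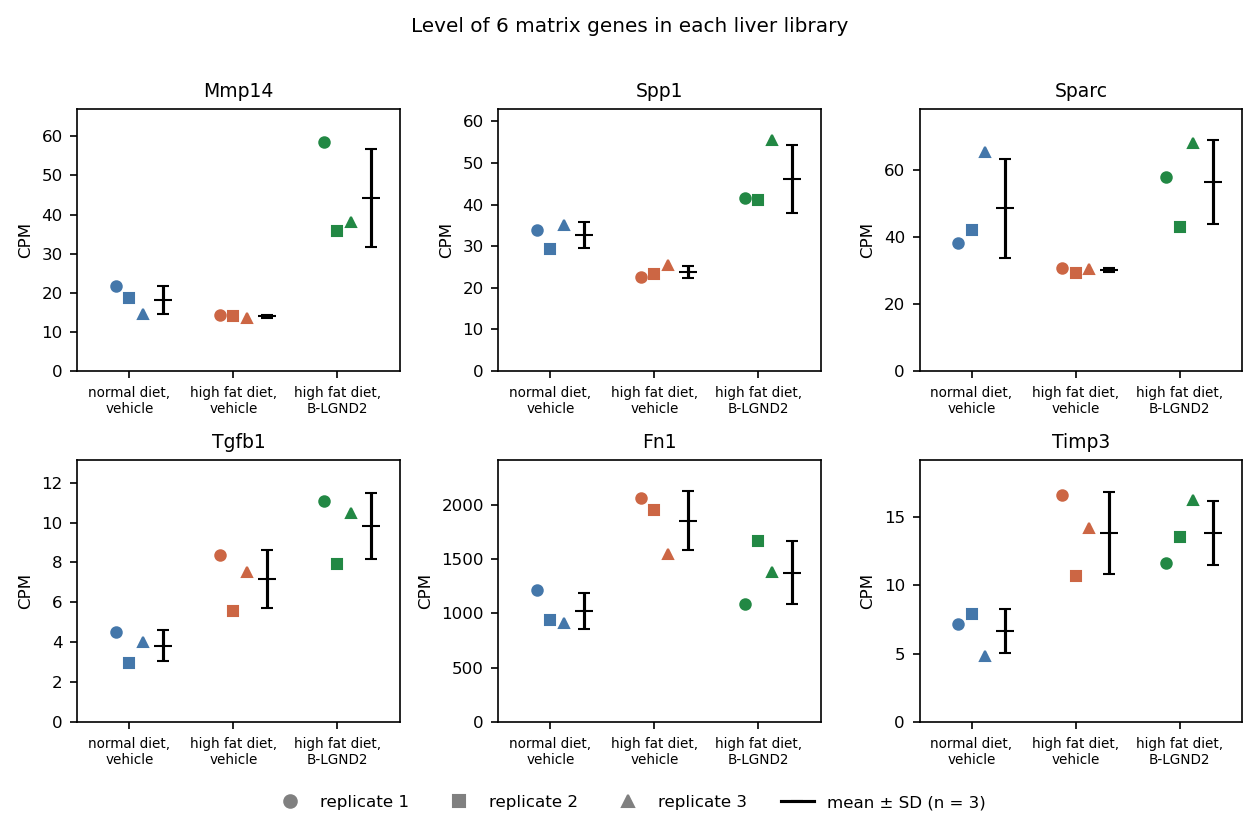
Level in CPM of Mmp14, Spp1, Sparc, Tgfb1, Fn1 and Timp3 in each of the 9 libraries, with mean ± SD of each group of 3 beside the points. Mmp14 separates the B-LGND2 livers (35.7 to 58.6) from all others (13.5 to 21.6). Under vehicle the diets do not overlap for any gene shown, but these include the 4 with the smallest p for diet, and none passed for diet. Of the 38 tested genes, 7 were higher and 6 lower on high fat diet without overlap. High fat is higher for Tgfb1, Fn1 and Timp3 (15.4% of all genes) and lower for Mmp14, Spp1 and Sparc (14.8% of all genes).

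TGF-beta1 is the main fibrogenic cytokine of the liver, and it signals through the receptor pair Tgfbr1 and Tgfbr2. The window before the Tgfb1 start is printed as that of a called gene, and it is rich in GC (75.2%).

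Tgfb1 promoter, GRCm38.p6 chr7:25686752-25687001, plus strand: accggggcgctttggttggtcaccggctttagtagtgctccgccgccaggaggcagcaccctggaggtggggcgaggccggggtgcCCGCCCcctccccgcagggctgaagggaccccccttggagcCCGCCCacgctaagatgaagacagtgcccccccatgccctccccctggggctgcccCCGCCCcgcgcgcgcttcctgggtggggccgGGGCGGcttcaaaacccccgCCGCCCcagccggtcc

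Capitals mark 5 GC boxes (GGGCGG or its complement), a motif held by 32.7% of the 32851 windows. Neither the AP-1 letters TGANTCA (6.75% of windows) nor the palindromic estrogen response element (0.0639%) was found in the 3 windows printed.

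Tgfb1 (chr7:25687002-25705077) had 29, 18 and 29 counts on normal diet, 51, 37 and 54 in high fat vehicle livers and 96, 54 and 63 with B-LGND2. The means were 3.83 ± 0.786, 7.15 ± 1.45 and 9.83 ± 1.68 CPM. Every high fat library, with or without B-LGND2, lay above every normal diet library, while the 2 high fat groups overlapped. Treated livers rose against normal diet, with a log2 fold change of 1.35 (SE 0.31, 95% interval 0.69 to 2.02, adjusted p = 0.0292, higher in 3 of 3 libraries). The diet value under vehicle was 0.89 (SE 0.32, adjusted p = 0.115) and the B-LGND2 value on the high fat diet 0.46 (SE 0.30, 95% interval -0.17 to 1.09, adjusted p = 0.365). The call held in 14 of 21 alternatives. It was lost without normal diet replicate 2 or 3 (adjusted p = 0.126 and 0.0546), high fat vehicle replicate 3 (0.0515), or B-LGND2 replicate 1 or 3 (0.0968 and 0.0622), when only the 2 groups were fitted (0.0843), and without normal diet and B-LGND2 replicate 1 together (0.0563).

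The other genes of this role did not pass. Tgfbr1 had 29.5 ± 1.27 CPM on normal diet, 21.6 ± 0.701 in high fat vehicle livers and 29.6 ± 5.72 with B-LGND2, with log2 fold changes of -0.45 (adjusted p = 0.242) for diet and 0.46 (adjusted p = 0.223) with B-LGND2. High fat vehicle libraries were the lowest 3 of 9. Tgfbr2 ranged from 33.3 to 72.6 CPM with all groups overlapping. Tgfb2, a second ligand, had 0 to 6 counts per library and was not tested.

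Mmp14 had the smallest p of the list in the B-LGND2 comparison and in the comparison with normal diet. Its product, membrane-type matrix metalloproteinase 1, cuts fibrillar collagen at the cell surface and activates the soluble enzyme encoded by Mmp2. Its upstream window is shown for comparison with those of Spp1 and Tgfb1.

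Mmp14 promoter, GRCm38.p6 chr14:54431348-54431597, plus strand: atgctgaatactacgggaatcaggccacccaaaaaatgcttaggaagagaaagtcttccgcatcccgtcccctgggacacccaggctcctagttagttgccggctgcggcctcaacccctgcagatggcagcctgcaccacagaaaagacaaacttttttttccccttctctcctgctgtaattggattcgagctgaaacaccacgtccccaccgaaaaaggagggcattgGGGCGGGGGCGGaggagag

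Capitals mark 2 GC boxes that begin 19 and 13 bases before the start, beside the 5 of Tgfb1 and none in Spp1. No TATAAA was found in the Mmp14 or Tgfb1 window.

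Mmp14 (chr14:54431612-54445364) had 139, 113 and 105 counts on normal diet, 87, 94 and 97 in high fat vehicle livers and 507, 243 and 230 with B-LGND2. In CPM these were 21.6, 18.6 and 14.5, then 14.3, 14.1 and 13.5, then 58.6, 35.7 and 38.2. The 3 B-LGND2 libraries were the highest of the 9 and replicate 1 was the highest among them, while both vehicle groups lay close together. The log2 fold change with B-LGND2 against high fat vehicle was 1.66 (SE 0.26, 95% interval 1.12 to 2.2, adjusted p = 0.0029, higher in 3 of 3 libraries). All 21 alternatives called it, at 1.42 to 1.81, with adjusted p of at most 0.0228, and without B-LGND2 replicate 1 it was 1.43 (adjusted p = 0.0139). Against normal diet it was 1.28 (SE 0.25, 95% interval 0.74 to 1.81, adjusted p = 0.0142), and this call was lost without normal diet replicate 2 (1.29, adjusted p = 0.0599) and without B-LGND2 replicate 1 (1.02, adjusted p = 0.0595). The diet value was -0.38 (SE 0.26, adjusted p = 0.395).

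Mmp2 itself, a gelatinase of stellate cells, had 1.59 ± 0.545, 1.51 ± 0.956 and 2.75 ± 0.512 CPM, with a log2 fold change of 0.89 (SE 0.52, adjusted p = 0.313) with B-LGND2. Timp3, whose product is an inhibitor bound to the matrix (chr10:86300372-86349506), counted 46, 48 and 35 in normal diet livers, 101, 71 and 102 in high fat vehicle livers and 101, 92 and 98 with B-LGND2. The means were 6.64 ± 1.61, 13.8 ± 3.00 and 13.8 ± 2.32 CPM, so both high fat groups lay above normal diet and overlapped each other. Its log2 fold change was 1.06 (SE 0.29, adjusted p = 0.0553) for diet, 1.06 (SE 0.29, adjusted p = 0.0585) for treated livers against normal diet and -0.00 (SE 0.28, 95% interval -0.59 to 0.58, adjusted p = 0.996) with B-LGND2. For diet, 5 of 21 alternatives called it, 1 of them without normal diet replicate 1 (1.12, adjusted p = 0.0289). Timp3 lies within Syn3 on the opposite strand, and 21.3% of its exonic bases are shared with that gene, which had 47 counts over all libraries. The sources used here do not state whether counting used strand.

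Timp1, encoding a secreted TIMP that is typically induced in fibrotic liver (chrX:20870166-20874735), had 0, 0 and 2 counts on normal diet, 1, 0 and 0 in high fat vehicle livers and 0, 1 and 3 with B-LGND2. A count of 0 allows up to 3 counts in that library, so no difference was detectable at this depth, and no fold is given. Timp2 had 15.8 ± 2.85, 20.99 ± 7.08 and 25.2 ± 10.6 CPM, with its highest library in B-LGND2 replicate 1. Of the lysyl oxidases, Lox had 0 counts in all normal diet libraries and at most 6 elsewhere, Loxl1 had 2 to 6 counts per library, and Loxl2 had 2.11 ± 0.757, 2.203 ± 0.362 and 3.53 ± 1.54 CPM (log2 fold change 0.67 with B-LGND2, adjusted p = 0.380). Counting intervals and floors cover counting error only, since amplified reads without molecular identifiers are not independent molecules.

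Of the 9 stellate and mesenchymal genes, 0 passed in any comparison, and at an unadjusted p under 0.05 the counts were 0 for diet, 1 with B-LGND2 and 3 for treated livers against normal diet, beside 22.4%, 23.7% and 19.4% of all genes. Acta2 encodes smooth muscle actin, the classical marker of activated stellate cells and also a gene of vascular smooth muscle (chr19:34241090-34255590). It had 45, 4 and 21 counts on normal diet, 102, 17 and 2 in high fat vehicle livers and 16, 6 and 3 with B-LGND2. Each group spread widely, and high fat vehicle replicate 1 held most of its group's counts. The log2 fold change was 0.87 (SE 1.07, adjusted p = 0.670) for diet, -2.50 (SE 1.19, 95% interval -5.16 to 0.15, adjusted p = 0.236) with B-LGND2 and -1.64 (SE 1.22, adjusted p = 0.505) for treated livers against normal diet. Without high fat vehicle replicate 1 the diet value was -1.32.

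The same library was the highest for the smooth muscle markers Myh11, Cnn1, Actg2 and Lmod1, but not for Smtn. Smtn had 4.77, 4.20 and 4.03 CPM in high fat vehicle livers and was highest in B-LGND2 replicate 1, at 7.39. Myh11, the smooth muscle myosin heavy chain, had 32, 10 and 7 counts on normal diet, 104, 9 and 8 in high fat vehicle livers and 10, 10 and 10 with B-LGND2. Over the whole smooth muscle list of 5 markers (Myh11, Cnn1, Smtn, Actg2, Lmod1), the summed level was 34.1 CPM in high fat vehicle replicate 1, 5.15 to 6.45 in the other 2 of its group, 2.64 to 10.7 on normal diet and 6.15 to 10.4 with B-LGND2. Cnn1, encoding calponin, had 33 counts in that library and 0 to 3 in the others. The part of smooth muscle content in the Acta2 values was not tested. Tagln, encoding transgelin, a contractile cell protein, had 30.1 CPM in the same library and 8.21 to 22.3 in the other 8. The annotation places the antisense gene Gm48529 over 62.4% of the exonic bases of Tagln, and Pcsk7, with 2350 counts over all libraries, over 5.43%.

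**Figure D4:**
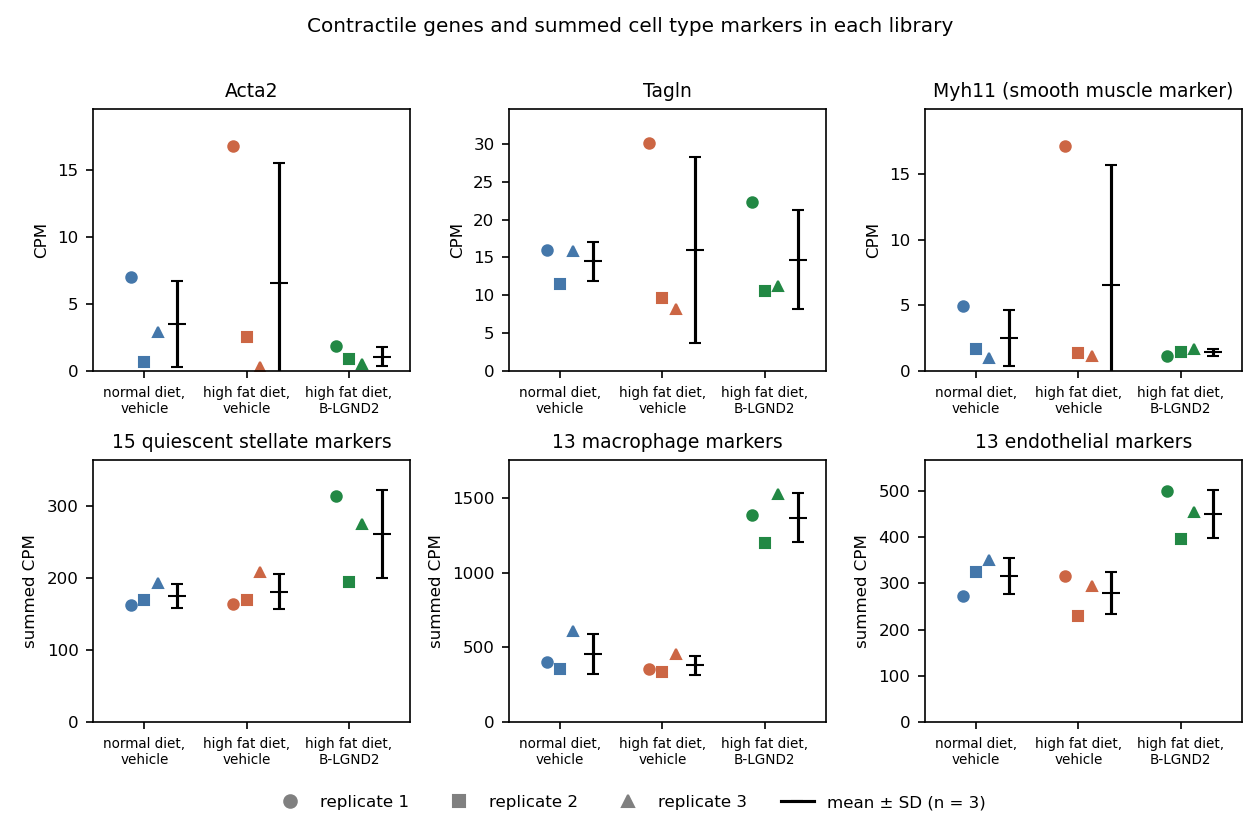
CPM of Acta2, Tagln and Myh11, and summed CPM of the quiescent stellate, macrophage and endothelial marker lists, in each of 9 libraries with mean ± SD per group of 3 (axes start at 0, which cuts off 2 SD bars). High fat vehicle replicate 1 is highest for Acta2, Tagln and Myh11, and the macrophage sums are 1197 to 1524 with B-LGND2 against 333 to 607 elsewhere.

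Lrat encodes the enzyme that esterifies retinol for storage and is a marker of quiescent stellate cells (chr3:82892579-82903973). It had 56, 64 and 76 counts on normal diet, 28, 96 and 158 in high fat vehicle livers and 115, 80 and 91 with B-LGND2. High fat vehicle libraries spanned 4.61 to 22.0 CPM, which covers both other groups. Its log2 fold changes were 0.47 (SE 0.39, adjusted p = 0.498) for diet, -0.04 (SE 0.38, adjusted p = 0.963) with B-LGND2 and 0.43 (SE 0.39, adjusted p = 0.578) for treated livers against normal diet. Without high fat vehicle replicate 3 the first 2 values changed sign, to -0.05 and 0.48, and without B-LGND2 replicate 2 the second was 0.07.

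Des encodes desmin, an intermediate filament protein of stellate and muscle cells (chr1:75360329-75368579). It had 27, 19 and 23 counts on normal diet, 38, 24 and 18 in high fat vehicle livers and 92, 26 and 34 with B-LGND2, or 3.504 ± 0.605, 4.12 ± 1.93 and 6.70 ± 3.52 CPM. The 2 high fat groups overlapped, and B-LGND2 replicate 1 was the highest library. Its log2 fold changes were 0.22 (SE 0.44, adjusted p = 0.800), 0.72 (SE 0.42, adjusted p = 0.307) and 0.95 (SE 0.43, adjusted p = 0.233) in the same order. The diet value was -0.20 without high fat vehicle replicate 1.

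Vim, encoding the intermediate filament vimentin of mesenchymal cells, had 10.4 ± 3.28, 14.9 ± 6.95 and 21.9 ± 0.587 CPM in the 3 groups (log2 fold change against normal diet 1.08, SE 0.32, adjusted p = 0.0809). The receptors for platelet-derived growth factor differed in pattern. Pdgfrb, the receptor of stellate cells, had 5.24 ± 2.67, 5.84 ± 1.44 and 10.003 ± 2.04 CPM and Pdgfra 2.94 ± 0.316, 3.93 ± 0.668 and 2.86 ± 0.833, with log2 fold changes with B-LGND2 of 0.78 (adjusted p = 0.197) and -0.46 (adjusted p = 0.480). Reln, encoding reelin, had 22.9 ± 0.662, 33.4 ± 5.65 and 33.7 ± 12.7 CPM. Hgf, encoding the hepatocyte growth factor that stellate cells secrete, had 2 to 23 counts per library, with the lowest in B-LGND2 replicate 1.

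The labelled tissue and the cell types that express these genes were checked with marker lists. Of 15 quiescent stellate markers, which include Lrat, Reln, Des and Pdgfrb of the list itself, none was at 0 in every library, though Gfap had at most 9 counts. Their summed level was 162 to 193 CPM on normal diet, 164 to 208 in high fat vehicle livers and 194 to 314 with B-LGND2. Of the 14 tested, 0 passed in any comparison, and with B-LGND2 7 had an unadjusted p under 0.05, all higher, beside 23.7% of all genes in either direction. Their median log2 fold change was 0.63, against -0.00 over all genes. Of 14 myofibroblast and fibroblast markers 10 were tested and 0 passed, with sums of 41.4 to 60.7, 32.3 to 109.8 and 36.3 to 68.0 CPM. Hepatocyte markers led every library, with summed levels of 71176 to 105160 CPM over 10 genes. Of these, Tat rose with diet (1.50% of all genes called higher) and Apoa1 with B-LGND2 (3.07%), and 0 passed against normal diet. With B-LGND2, 5 of the 10 were above 0 and 5 below, with a median log2 fold change of -0.19. At an unadjusted p under 0.05, 1 was higher and 3 were lower. Apoa1 had 57864, 23747 and 20006 CPM with B-LGND2 and 11766, 12955 and 13689 in high fat vehicle livers.

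Macrophage markers were higher with B-LGND2. All 13 of the list were tested, and 11 rose against high fat vehicle (3.07% of all genes called higher) and 10 against normal diet (1.59%). Their summed level was 355 to 607 CPM on normal diet, 333 to 453 in high fat vehicle livers and 1197 to 1524 with B-LGND2, and none was at 0 in every library. The macrophage complement gene C1qa, for example, had 37.1 ± 5.51 CPM in high fat vehicle livers and 169 ± 50.1 with B-LGND2 (log2 fold change 2.19, SE 0.27, adjusted p = 5.02e-04). Cd5l, C1qb and C1qc were among the others that rose. In the bile duct list, the summed level was 64.3 to 87.2 CPM with B-LGND2 against 12.7 to 23.2 in the other libraries. Tff3 alone had 44.5, 47.7 and 73.4 CPM with B-LGND2 and 1.82 to 4.82 elsewhere. Without it, a sum computed after the values were seen, the other 8 markers reached 13.8 to 24.0 CPM with B-LGND2 and 9.25 to 18.4 in the other libraries, which overlapped. Of 9 bile duct markers 4 were tested and Tff3 alone passed, higher with B-LGND2 (log2 fold change 4.04, SE 0.35, adjusted p = 1.8e-05).

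Among 13 endothelial markers Kdr and Gpr182 rose with B-LGND2 against high fat vehicle (3.07% of all genes called higher). Against normal diet, Lyve1, Gpr182, Cdh5 and Stab2 rose (1.59%). The endothelial sum was 273 to 350, 229 to 315 and 397 to 500 CPM in the 3 groups. Of the mesothelial list, 2 of 6 markers were tested, and Upk3b rose with B-LGND2 (log2 fold change 1.80, SE 0.48, adjusted p = 0.0385). T and NK cell markers summed to at most 4.32 CPM and neutrophil markers to at most 10.2, with Mpo at 0 in every library. B cell markers summed to 7.79 to 17.8 CPM and 0 of the 2 tested passed. The part of macrophage, endothelial, mesothelial and bile duct content in the values of the matrix genes was not tested.

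Around the list, 128 further genes of matrix and its signalling were examined, of which 90 were tested. For diet 1 rose and 0 fell, with B-LGND2 2 rose and 2 fell, and for treated livers against normal diet 3 rose and 0 fell, beside the same 2.99%, 5.63% and 2.93% of all genes. Their median log2 fold changes were 0.24, 0.05 and 0.29.

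Of 17 other collagens, 5 were tested. Col27a1, a fibrillar collagen best known from cartilage, had 227, 102 and 33 counts on normal diet, 489, 389 and 718 in high fat vehicle livers and 187, 109 and 99 with B-LGND2. High fat vehicle libraries lay above all others, with 79.6 ± 20.8 CPM against 18.9 ± 15.5 on normal diet and 18.0 ± 3.11 with B-LGND2. It rose with diet (log2 fold change 2.08, SE 0.50, adjusted p = 0.0440) and fell with B-LGND2 (-2.14, SE 0.50, adjusted p = 0.0295), in 2 comparisons that share the high fat vehicle libraries. Col5a3, a chain that can replace others in type V collagen, also fell with B-LGND2 (-1.65, SE 0.46, adjusted p = 0.0488), from 15.5 ± 4.28 to 4.99 ± 2.16 CPM. On normal diet Col5a3 had 20.2, 7.10 and 5.24 CPM, with replicate 1 within the high fat vehicle range. Col27a1 and Col5a3 were not followed over the alternative analyses, and the part of the libraries' correlation with transcript length in their values was not tested.

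Of 17 tested genes of PDGF and HGF signalling and of matrix receptors, 2 rose with B-LGND2 against high fat vehicle, beside 3.07% of all genes called higher, and the median log2 fold change of the 17 was 0.12, with 6 below 0. Itga5, the integrin chain that pairs for fibronectin, had 15.9 ± 2.87 CPM in high fat vehicle livers and 32.6 ± 6.26 with B-LGND2 (log2 fold change 1.04, SE 0.29, adjusted p = 0.0465). Sdc1, encoding the heparan sulfate proteoglycan syndecan 1 of the cell surface, had 188 ± 12.6 and 309 ± 36.5 CPM (0.72, SE 0.20, adjusted p = 0.0470). Itgb3, an integrin chain that binds osteopontin among other ligands, rose in treated livers against normal diet (1.55, SE 0.32, adjusted p = 0.0165). In that comparison Emilin1, an elastic fibre glycoprotein (1.01, SE 0.25, adjusted p = 0.0422), and Prelp, a leucine-rich proteoglycan (0.93, SE 0.23, adjusted p = 0.0387), also rose. None of the 24 tested genes of TGF-beta signalling and none of the 19 tested genes of collagen processing and turnover passed in any comparison by edgeR's test. For diet, B-LGND2 and treated livers against normal diet, 4, 3 and 6 of the former and 2, 4 and 3 of the latter had an unadjusted p under 0.05, beside 22.4%, 23.7% and 19.4% of all genes.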

How the data were processed

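Poly(A)-enriched liver RNA was sequenced on an Ion Torrent Proton, per the labels' protocols. The authors deposited a table of unnormalized whole-number read counts for each gene. HTSeq 0.6.1p1, TopHat2 2.0.13 and Bowtie2 2.2.4 are named in the submitters' processing notes beside DESeq2 1.6.3 and SAMtools 0.1.19, with GRCm38.p3, and the sources used here state neither strand setting nor annotation release. Columns were matched to libraries by name. Symbols, 1-based gene spans and the length and GC content of the longest transcript came from GENCODE M21 on GRCm38 (44671 IDs with a symbol, 842 without). Promoter windows came from RefSeq on GRCm38.p6, where 30 of the 44 genes had an entry.

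In R 4.3.3, edgeR 4.0.16 filtered genes with filterByExpr (minimum count 10), which kept at least 99.73% of each library's counts, scaled libraries by the trimmed mean of M-values and fitted 1 robust quasi-likelihood model to 9 libraries (6 residual degrees of freedom), with 3 two-sided contrasts. Each SE is the fold change divided by the root of its F value. All 44 genes are named. Full statistics are given for those called, the 4 with the smallest p per comparison, and Col1a1, Col1a2, Col3a1, Acta2, Tgfb1, Timp1, Lrat and Des; of the other lists, called genes, at most 4 per comparison. The genes and lists were chosen with earlier results of these data known. The 21 alternatives per comparison were other scalings, filters, tests (DESeq2 1.42.0, limma-voom from limma 3.58.1), sample sets, a replicate block, a length and GC correction, and each library left out.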

Additional observations from a re-analysis of the deposited data

How the results depend on the processing

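The replicate numbers of the titles did not pair the libraries: correlations of same-numbered libraries' deviations from their group means ran from -0.1934 to 0.1244. With the number as a replicate block, 0, 2 and 3 listed genes were called for diet, B-LGND2 and treated livers against normal diet (0, 3 and 2 without it), and 203, 488 and 253 of all genes (362, 681 and 354 without it), and Lrat with B-LGND2 was 0.11. Listed genes called for diet became 2 without scaling, without a filter and with DESeq2 (Fn1 and Timp3 each time), and 1 with at least 50 counts in 3 libraries or limma-voom. With B-LGND2 they became 1 without scaling. Against normal diet they became 8 without a filter, 6 with DESeq2, 1 with only the 2 groups fitted and 5 with the length and GC correction. Leaving out 1 library gave 0 to 6 for diet (6 without normal diet replicate 1), 1 to 4 with B-LGND2 (1 without high fat vehicle replicate 1, 2 or 3 or without B-LGND2 replicate 3) and 0 to 8 against normal diet (8 without normal diet replicate 1, 0 without normal diet replicate 2 or B-LGND2 replicate 1, and 1 without normal diet replicate 3, high fat vehicle replicate 3 or B-LGND2 replicate 3). All genes called were 1182, 1345 and 751 without a filter, 973, 1084 and 609 with DESeq2, and 153, 1420 and 144 with only the 2 groups fitted, and 227 for diet with the length and GC correction. Leaving out 1 library gave 35 to 1860, 100 to 1439 and 111 to 639. After the data were seen, 2 pairs of libraries were also left out. Without normal diet and B-LGND2 replicate 1, 6 listed genes and 2381 of all genes were called for diet and 414 of all genes with B-LGND2. Without normal diet and high fat vehicle replicate 1, the numbers were 2 and 901 for diet and 1 and 358 with B-LGND2, and 6 listed genes were called against normal diet.

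Among called genes of all kinds, the share that was higher for diet was 50.3%, but 72.6% without scaling, 61.4% with limma-voom and 61.7% with the length and GC correction. With B-LGND2 it was 54.5%, but 31.2% without scaling, which moved the median of all genes by 0.17 for diet and -0.18 with B-LGND2. Signs turned for genes that passed in no analysis. For diet, Acta2 was -0.16 with limma-voom, -1.32 without high fat vehicle replicate 1 and -0.37 with normal diet replicate 1 also left out (-1.32 to 1.81 over single libraries left out). Col1a1 was 0.11 without normal diet replicate 1, and 0.10 and 0.049 without the 2 pairs in order (-0.58 to 0.11 over single libraries left out). Col3a1 was 0.018 without scaling, 0.35 without normal diet replicate 1, 0.13 without high fat vehicle replicate 3, and 0.33 and 0.42 without the pairs (-0.57 to 0.35 over single libraries). Des was -0.20 without high fat vehicle replicate 1 and -0.051 without the second pair (-0.20 to 0.49 over single libraries), and Lrat -0.053 without high fat vehicle replicate 3 (-0.053 to 0.87). With B-LGND2, Lrat was 0.19 with limma-voom, 0.22 with the length and GC correction, 0.48 without high fat vehicle replicate 3 and 0.07 without B-LGND2 replicate 2 (-0.45 to 0.48 over single libraries). Against normal diet, Col3a1 was -0.066 without B-LGND2 replicate 3 (-0.066 to 0.74). The causes were not tested. Leaving out a library leaves 2 in its group, and genes with few counts, such as Col1a1 and Acta2, have intervals that span several fold.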

Other observations

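The ratios of chains of the same protein were compared between groups. Per kb of transcript, the ratio of Col1a1 to Col1a2, whose products assemble into type I collagen, was 0.551, 1.08 and 0.820 on normal diet, 0.190, 0.265 and 0.341 in high fat vehicle livers and 0.535, 0.274 and 0.545 with B-LGND2. The normal diet ratios lay above those of both high fat groups (two-sided exact permutation test on log2 ratios, p = 0.1 for diet and for treated livers against normal diet, the smallest that 3 against 3 can give), and the high fat groups overlapped (exact p = 0.2). These ratios rest on few counts: Col1a1 had 10 to 14 in the high fat vehicle libraries and 22, 12 and 10 on normal diet, where Col1a2 had 36, 10 and 11. The lowest normal diet ratio (0.551) was close to the highest with B-LGND2 (0.545). The ratio of Lamb1 to Lamc1, laminin chains of the same trimers, was 0.312, 0.274 and 0.203 on normal diet, 0.591, 0.634 and 0.553 in high fat vehicle livers and 0.294, 0.315 and 0.307 with B-LGND2 (exact p = 0.1 for diet and for B-LGND2, and 0.3 for treated livers against normal diet). For this ratio the high fat vehicle libraries lay above all others. Their correlation with transcript length was also the highest, 0.299 to 0.359, and its part in the ratio was not tested. The ratios of Col4a1 to Col4a2 and of Col6a1 to Col6a2 had exact p of 0.6 and 1.0 for diet, 0.7 and 0.9 with B-LGND2, and 0.9 and 0.6 for treated livers against normal diet. These 4 ratios give 12 tests over 3 comparisons, none of which can pass after adjustment.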
